A study of Mus musculus with 4 samples.

Results

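The 9 BCL2 family genes Bcl2, Bcl2l1, Mcl1, Bax, Bak1, Bid, Bad, Bcl2l11 and Bbc3 were followed in the β, α and δ cells of mouse islets. They were matched by gene symbol, and all 9 were found among the 31053 genes of the count tables. Islets of male mice, C57BL/6 in the sample labels and C57BL6/J in the study's methods, were pooled and separated into 4 samples. These were left untreated or given IL-1β, IFN-γ or both for 6 h, and each sample gave 1 droplet-based single-cell RNA-seq library. With 1 library per condition, a difference between treatments cannot be told apart from a difference between libraries, and no test was run. Of 12571 barcodes, 7471 cells had 200 to 4000 detected genes and at most 12% mitochondrial counts, and 6084 of these were placed in the β, α or δ class.

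Cells were classed by the hormone with the largest share of their unique molecular identifiers (UMIs, which count captured molecules). That share had to reach 5% and be at least 3 times that of the next hormone. There were 1191 untreated β cells, 1172 in the IL-1β library, 1287 in the IFN-γ library and 1297 in the combined library. The α class held 88, 338, 288 and 168 cells in the same order, and the δ class held 27, 70, 109 and 49. The classes carried their own markers. Ttr, which is abundant in α cells, led the α markers at 8842, 5581, 6413 and 8430 UMIs per 1000000 UMIs (CPM) in α cells and stood between 92.2 and 202 CPM in β cells. All 5 δ markers were detected in δ cells of every library, led by Rbp4 at 3597 to 4497 CPM, which was also at 1542 to 2791 CPM in α cells, where 3 to 5 of the 5 were detected. The δ cells also held 30294 to 52441 CPM of Iapp, and 54 of the 255 lay near the 3-fold limit on the next hormone. After Sst, the hormone with the largest median share in them was Ppy, at 1.09% to 1.78% of UMIs. The study, which assigned cell types by cluster, reported far more δ cells than these 255. The δ results below therefore cover only cells within these limits. The 7 macrophage markers summed to 80.9, 48.4, 46.5 and 144 CPM in β cells (untreated, IL-1β, IFN-γ and both), to 52.6, 16.3, 24.2 and 49.9 CPM in α cells and to 105, 32.3, 66.1 and 107 CPM in δ cells. They were led by C1qa in every class and library but the IL-1β library of δ cells, where Cd68 led, and C1qa reached 135 CPM in β, 49.2 in α and 97.0 in δ cells. Ptprc and Csf1r were at 0 in α and δ cells of all 4 libraries. Acinar markers, led by Ctrb1, summed to 62.8, 13.8, 66.2 and 275 CPM in β cells in the same order. In α cells they summed to 69.8, 17.1, 137 and 70.9 CPM. In δ cells they were led by Cela1 and summed to 562, 250, 276 and 251 CPM. Ductal markers, led by Spp1, summed to 2290, 8843, 3171 and 4242 CPM in α cells. They summed to 14.7 to 122 CPM in β cells and 119 to 350 CPM in δ cells. The part of the macrophage, acinar and ductal sets in the values below was not tested. The treatment labels fitted the leading cytokine responses in β cells. Nos2 (inducible nitric oxide synthase) was at 0.0497, 137, 2.38 and 636 CPM in the order untreated, IL-1β, IFN-γ and both, and Irf1, an interferon-responsive transcription factor, was at 19.7, 40.2, 206 and 333 CPM.

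The BCL2 family controls the release of cytochrome c from mitochondria. Bax and Bak are the effectors that open the outer membrane, and Bcl-2, Bcl-xL (from Bcl2l1) and Mcl-1 hold them back. The BH3-only proteins Bid, Bad, Bim (from Bcl2l11) and Puma (from Bbc3) act upstream, by neutralizing the anti-apoptotic proteins or by activating the effectors directly. Much of this control is exerted on the proteins, by phosphorylation, cleavage and turnover, which transcript counts do not show. The counts are taken at the 3′ end, so that the Bcl-xL and Bcl-xS forms of Bcl2l1 cannot be told apart, and each UMI is 1 molecule whatever the length of the transcript.

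Levels are summed UMIs of a class divided by all UMIs of that class, and intervals are exact 95% intervals for counting error only. Hormone transcripts set a large part of these totals. In β cells, 7 hormone genes supplied 47.6% of the UMIs of the untreated library, 28.6% of the IL-1β library, 34.5% of the IFN-γ library and 37.9% of the combined library. Every other gene of β cells is therefore raised in CPM where the hormone share is low. Leaving the hormone genes out of the totals shifted all β-cell log2 ratios to the untreated library by −0.45 for IL-1β, −0.32 for IFN-γ and −0.24 for both. In α cells, the shift was −0.09, −0.11 and −0.09.

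In untreated β cells, the effector Bax was the most abundant member and Bcl2 the least. Bax stood at 116 CPM (95% interval 111 to 121, 2329 UMIs) and Mcl1 at 41.8 CPM (39.0 to 44.7). Bad followed at 19.8 CPM, Bcl2l1 at 13.9 CPM and Bcl2l11 at 10.2 CPM. These neighbors in the order had intervals that did not overlap. Bak1 at 5.17 CPM (4.22 to 6.26) and Bbc3 at 4.77 CPM (3.87 to 5.83) were not distinguishable by their intervals. Bid stood at 2.14 CPM (1.55 to 2.88) and Bcl2 at 0.547 CPM, or 11 UMIs in 1191 cells.

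**Figure D1:**
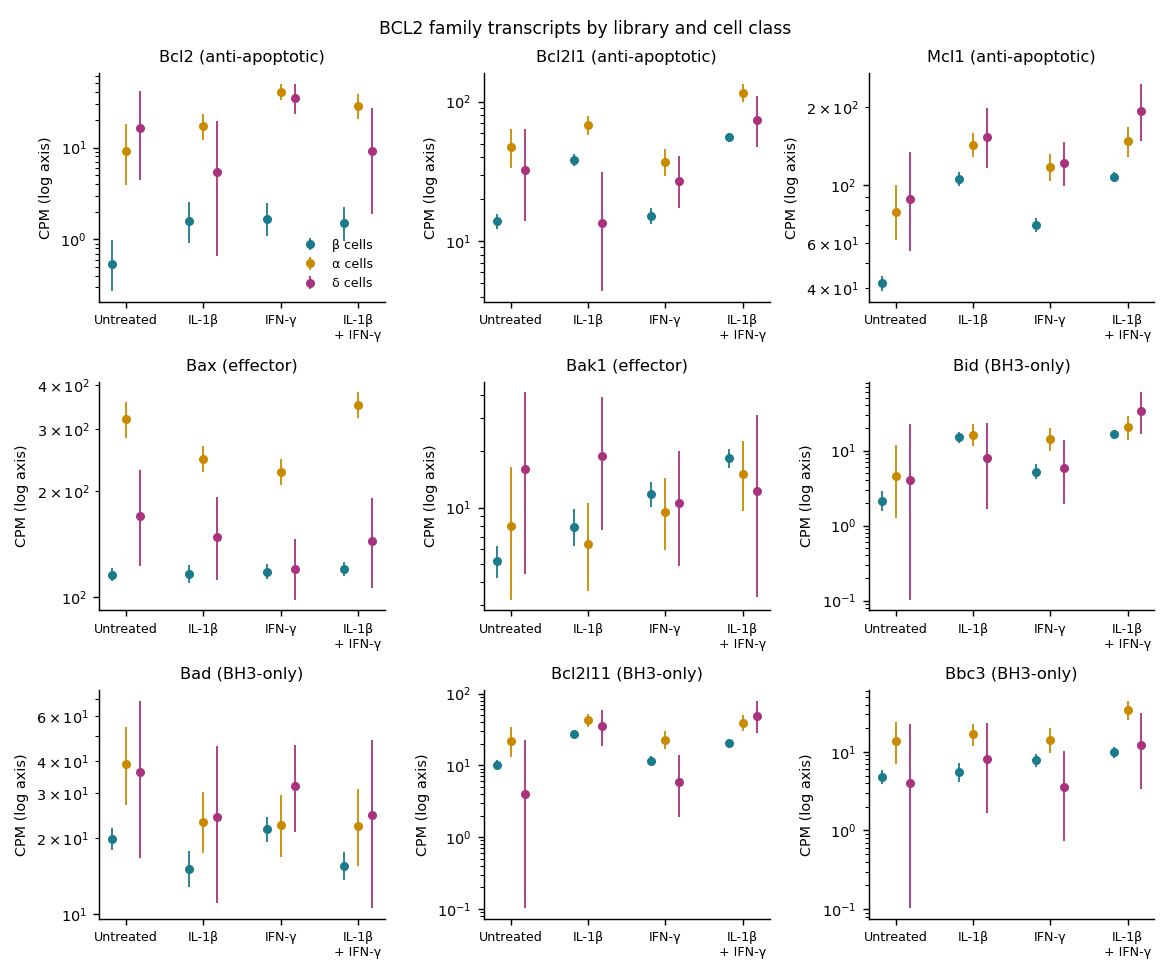
Level of each of the 9 genes in CPM on a log axis, by library and cell class. Points are summed UMIs per 1000000 UMIs of the class and bars are exact 95% Poisson intervals. Bcl2 lies at or below 1.68 CPM in β cells of every library and is higher in α cells of all 4, and the bars of δ cells are wide because the class is small.

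With IL-1β, 6 of the 9 members were at least 1.5-fold higher in β cells than without treatment and none was at least 1.5-fold lower. They were all 3 anti-apoptotic genes together with Bak1, Bid and Bcl2l11. Of the 11949 genes with at least 50 UMIs over the 4 libraries of β cells, 36.1% were higher by this fold and 12.2% lower. With IFN-γ, 5 members were higher (Bcl2, Mcl1, Bak1, Bid and Bbc3), against 21.2% of genes higher and 2.66% lower. With both cytokines 7 were higher, all but Bax and Bad, against 21.1% of genes higher and 22.3% lower. The median log2 ratio of the members was 1.34, 0.71 and 1.36 for IL-1β, IFN-γ and both, and that of all genes tested was 0.35, 0.30 and 0.0073. With the hormone genes left out, 5 members were higher and Bad lower with IL-1β (16.2% and 25.5% of genes), 3 were higher with IFN-γ (7.95% of genes, with 7.82% lower), and 7 were higher and Bad lower with both (14.4% and 31.6%).

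Among the anti-apoptotic genes, Bcl2l1 (chr2:152780668-152831728, GRCm38) separated the libraries that received IL-1β from those that did not. Its level in β cells was 13.9 CPM untreated, 38.1 for IL-1β, 15.2 for IFN-γ and 56.0 for both. The libraries with IL-1β lay above the other pair, and the intervals of the latter overlapped. The ratio to untreated was 2.75 (2.35 to 3.22) for IL-1β, 1.10 (0.914 to 1.31) for IFN-γ and 4.04 (3.53 to 4.64) for both. With the hormone genes left out, these were 2.02, 0.879 and 3.41. The level with both cytokines was 1.47-fold (1.30 to 1.66) that with IL-1β alone. After each cell was thinned to 4000 UMIs, a Bcl2l1 UMI was found in 6.16%, 14.4%, 5.98% and 19.4% of β cells in the same order of libraries, and without thinning in 20.4%, 27.6%, 15.1% and 46.2%.

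Mcl1 (chr3:95658788-95663176) encodes a short-lived anti-apoptotic protein. It was higher in β cells of all 3 treated libraries, at 41.8 CPM untreated, 106 for IL-1β, 70.2 for IFN-γ and 108 for both. The IL-1β and combined libraries had a ratio of 1.02 (0.943 to 1.10), and of 1.17 (1.08 to 1.27) with the hormone genes left out, so that a difference beyond counting error depended on the scale. Over untreated, the ratio was 2.53 (2.31 to 2.77), 1.68 (1.53 to 1.84) and 2.57 (2.37 to 2.80). It was 1.86, 1.34 and 2.17 with the hormone genes left out, so that the IFN-γ ratio no longer reached 1.5. Bcl2 (chr1:106538178-106714274), the founding member, was scarce in β cells of every library, at 0.547, 1.58, 1.68 and 1.5 CPM. Its ratios of 2.89 (1.26 to 6.89), 3.08 (1.45 to 6.96) and 2.74 (1.29 to 6.20) rest on 11 untreated UMIs and 16 to 24 treated ones. Without the upper gene limit they were 1.65, 2.37 and 1.67, with thinned cells 2.10, 3.73 and 5.92, and the interval for IL-1β without the hormone genes was 0.925 to 5.06.

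Of the effectors, Bax (chr7:45461697-45466898) kept nearly the same level in CPM in the 4 libraries of β cells, and Bak1 (chr17:27019810-27029009) did not. Bax stood at 116, 116, 118 and 120 CPM in the order untreated, IL-1β, IFN-γ and both. Its ratios lay between 1.01 and 1.04, but with the hormone genes left out they were 0.738 (0.688 to 0.792), 0.817 (0.767 to 0.870) and 0.877 (0.826 to 0.932), so its direction depended on the scale. Bak1 was at 5.17, 7.90, 11.8 and 18.3 CPM. It was highest where both cytokines were given, and the point values were ordered untreated, IL-1β, IFN-γ and both. The ratio was 1.53 (1.13 to 2.06) for IL-1β, 2.29 (1.78 to 2.95) for IFN-γ and 3.54 (2.82 to 4.47) for both, and 1.12, 1.84 and 2.99 without the hormone genes. The interval of the IL-1β ratio then reached down to 0.828.

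The BH3-only gene with the largest ratio in β cells was Bid (chr6:120891930-120916853), whose protein is activated by cleavage by caspase-8. Its level was 2.14 CPM untreated, 15.1 for IL-1β, 5.26 for IFN-γ and 16.9 for both, from 43, 153, 75 and 270 UMIs. All 3 treated libraries lay above the untreated one, and their intervals did not overlap with it. The ratio was 7.07 (5.01 to 10.2) for IL-1β, 2.46 (1.67 to 3.67) for IFN-γ and 7.89 (5.70 to 11.2) for both. Without the hormone genes it was 5.19, 1.97 and 6.66. Among all genes tested, these ratios stood at percentiles 97.4, 96.0 and 97.2. The thinned share of β cells with a Bid UMI was 0.607%, 5.19%, 1.86% and 7.27%, and the share without thinning was 3.44%, 10.9%, 5.59% and 18.0%.

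Bcl2l11 (chr2:128126038-128162547), which encodes Bim, was at 10.2, 27.4, 11.6 and 20.5 CPM in β cells. As for Bcl2l1, the libraries with IL-1β lay above the others, but here the combination was lower than IL-1β alone, at 0.749-fold (0.636 to 0.882), a difference whose interval included 1 without the hormone genes (0.861, 0.732 to 1.01). The ratio to untreated was 2.67 (2.22 to 3.21), 1.13 (0.915 to 1.39) and 2.0 (1.68 to 2.39). Bbc3 (chr7:16308393-16318205), which encodes the p53 target Puma, was at 4.77, 5.53, 7.78 and 9.87 CPM. Its interval with IL-1β overlapped the untreated one, and the libraries with IFN-γ lay above the untreated one. The interval with IFN-γ alone (6.40 to 9.37 CPM) overlapped that with IL-1β alone (4.18 to 7.18 CPM). The ratio was 1.16 (0.818 to 1.63), 1.63 (1.23 to 2.17) and 2.07 (1.59 to 2.69). Without the hormone genes it was 0.851 (0.601 to 1.20), 1.31 (0.985 to 1.73) and 1.75 (1.35 to 2.27), so that IFN-γ alone no longer reached 1.5. Bad (chr19:6941861-6951899), whose protein is held inactive by 14-3-3 proteins when phosphorylated, was the only member below untreated in CPM in both libraries with IL-1β, where Bax joined it without the hormone genes. It stood at 19.8, 15.1, 21.6 and 15.6 CPM, with ratios of 0.764 (0.630 to 0.922), 1.09 (0.937 to 1.27) and 0.786 (0.668 to 0.923).

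**Figure D2:**
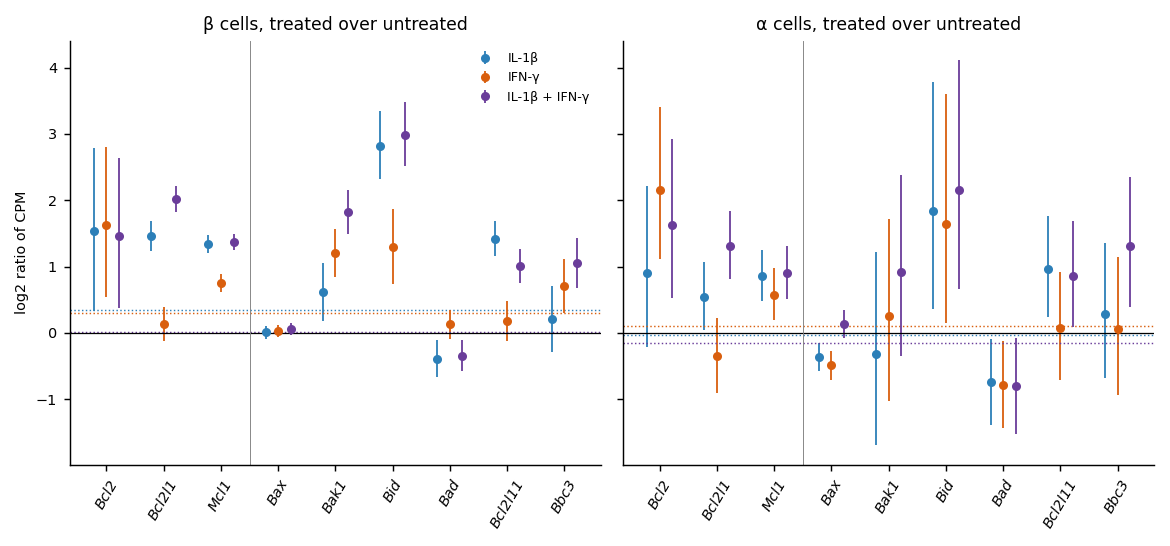
Log2 ratio of CPM to the untreated library for each gene in β cells (left) and α cells (right). Bars are 95% intervals for counting error, dotted lines are the median of all genes tested in that comparison, and the vertical line separates anti-apoptotic (left) from pro-apoptotic genes. In β cells Bid stands highest with IL-1β and with both cytokines, and Bax lies at the zero line in all 3 comparisons.

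The sequence upstream of the 9 genes was searched for the sites of the transcription factors that IL-1β and IFN-γ are known to activate. An NF-κB motif was found in the 250 bases before the start in 2 of their 15 RefSeq promoters and in 7.25% of 32851 promoters. The interferon-γ activated site TTCNNNGAA was in 0 of 15 and in 7.02% of all promoters. The latter motif reads the same on both strands, and both strands were searched for the former. The 2 stretches with an NF-κB match are shown, and they belong to Bcl2l1 and Bbc3. In β cells, Bcl2l1 was at least 1.5-fold higher in both IL-1β libraries. Bbc3 was past this fold with both cytokines (2.07) but not with IL-1β alone (1.16). Bcl2, Mcl1, Bak1, Bid and Bcl2l11 were also past it in both IL-1β libraries, and no match was found for them. A link between match and level was not tested. Capitals mark the bases covered by a match on either strand, which is 1 match for Bcl2l1 and 3 overlapping matches for Bbc3. The sequences are on the gene's strand (RefSeq, GRCm38.p6), the first at chr2:152830938-152830967 on the minus strand and the second at chr7:16309438-16309467 on the plus strand.
Bcl2l1: tgtttgtgGGGGGTCTCCagcatacgcctc
Bbc3: tggctgccGGGAAACCCCCcgcgccgaggt
The first base in capitals lies 242 bases before a RefSeq start of Bcl2l1, in a stretch that overlaps a GENCODE exon, and 137 bases before a RefSeq start of Bbc3. Both RefSeq starts lie inside the gene spans given above, which are those of GENCODE and begin further upstream. A match of letters is a description and does not show binding.

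In α cells, 8 of the 9 members were higher in CPM than in β cells in 4 of 4 libraries, and Bcl2 had the largest ratio in each. The share of all genes higher in α than in β cells is not given here, so this count is no result about the members. Hormone genes held 47.6% of the UMIs of untreated β cells and 24.2% of those of untreated α cells. Bcl2 was at 9.15 CPM untreated, 17.1 for IL-1β, 40.6 for IFN-γ and 28.2 for both. It was 16.7-fold (5.84 to 45.7), 10.8-fold (5.94 to 20.7), 24.1-fold (15.3 to 39.5) and 18.8-fold (11.2 to 32.4) higher than in β cells of the same library. At 4000 UMIs per cell, a Bcl2 UMI was found in 5.06%, 7.52%, 13.4% and 12.9% of α cells and in 0.173%, 0.364%, 0.647% and 1.03% of β cells. Without thinning, these shares were 9.09%, 10.7%, 25.7% and 20.8% against 0.924%, 1.37%, 1.71% and 1.70%, at median depths of 17117 UMIs in untreated β cells and 10864.5 in untreated α cells. Endothelial markers, from a cell type that also expresses Bcl2, summed to 0.432 to 6.56 CPM in α cells, and their part in the Bcl2 level was not tested.

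Bcl2l1, Mcl1, Bax, Bcl2l11 and Bbc3 were also higher in α than in β cells in 4 of 4 libraries, with intervals of the ratio above 1 in each. No share of all genes stands beside this tally either, and it is not read as a result about the members. For Bax, the ratio was 2.76 (2.43 to 3.12) untreated, 2.12 (1.91 to 2.34) for IL-1β, 1.92 (1.74 to 2.12) for IFN-γ and 2.91 (2.64 to 3.21) for both. For Bbc3, it was between 1.83 and 3.46. Part of each ratio lies in the hormone totals, where that of Bax in untreated cells was 1.91 without the hormone genes and that of Mcl1 with both cytokines was 1.37 with them and 1.05 without. Bid and Bad, the others of the 8, had ratios on either side of 1 without the hormone genes, at 0.927 to 2.18 and 0.835 to 1.36. Bak1 was higher in α cells in 1 of 4 libraries, the untreated one, at 8.01, 6.42, 9.50 and 15.1 CPM against 5.17, 7.90, 11.8 and 18.3 CPM in β cells, and the interval of the ratio included 1 in all 4 libraries.

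With IL-1β, 4 members were at least 1.5-fold higher in α cells (Bcl2, Mcl1, Bid and Bcl2l11) and Bad was lower, where 18.1% of the 8977 genes tested were higher and 20.8% lower. With IFN-γ, Bcl2 and Bid were higher and Bad lower, against 17.2% and 7.88% of genes. With both cytokines 7 were higher and Bad lower, against 17.5% and 27.4%. On the hormone-free scale, the counts were 4 higher and 1 lower with IL-1β (15.7% and 24.8% of genes), 2 and 2 with IFN-γ (13.1% and 11.3%), where Bax was lower too, and 7 and 1 with both (15.6% and 31.5%). Bid stood at 4.58, 16.3, 14.2 and 20.3 CPM, with ratios of 3.56 (1.28 to 13.7), 3.11 (1.11 to 12.1) and 4.45 (1.57 to 17.3) that rest on 4 untreated UMIs. Bcl2l1 was at 46.9, 68.1, 36.7 and 116 CPM, again highest with both, and its ratios were 1.45 (1.02 to 2.10), 0.783 (0.533 to 1.17) and 2.48 (1.76 to 3.57). The interval for IL-1β was 0.963 to 1.97 without the hormone genes. Mcl1 was at 78.9, 143, 117 and 148 CPM and Bcl2l11 at 21.7, 42.4, 22.9 and 39.4 CPM.

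Bax in α cells was lower with each cytokine alone and not with both. It stood at 319 CPM (283 to 359) untreated, 247 (227 to 268) for IL-1β, 227 (208 to 247) for IFN-γ and 351 (321 to 382) for both. The ratios were 0.773 (0.669 to 0.895), 0.710 (0.613 to 0.824) and 1.10 (0.949 to 1.27), or 0.726, 0.660 and 1.03 without the hormone genes. The intervals of the untreated and combined libraries overlapped, and those of the single cytokines lay below them. Bad was at 38.9, 23.1, 22.5 and 22.3 CPM, with ratios of 0.594 (0.380 to 0.942), 0.577 (0.368 to 0.917) and 0.574 (0.346 to 0.952). Bbc3 was at 13.7, 16.7, 14.2 and 34.1 CPM, and it was apart from untreated only with both, at a ratio of 2.49 (1.31 to 5.12).

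The Bcl2 ratios in α cells depended on the upper limit of 4000 genes. Over all cell types, the limit removed 843 cells of the deeply sequenced untreated library and 146, 345 and 222 of the others. Few of these were α cells. The α class held 88, 338, 288 and 168 cells with the limit and 108, 350, 324 and 180 without it. With the limit, the Bcl2 ratios were 1.87 (0.864 to 4.63), 4.44 (2.16 to 10.6) and 3.08 (1.43 to 7.60) from 8 untreated UMIs. Without the limit, Bcl2 in untreated α cells was at 17.1 CPM in place of 9.15, and the ratios were 0.962, 2.32 and 1.56. The level with IFN-γ remained the highest of the 4 libraries, at 39.8 CPM.

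In δ cells, only Bcl2l1, Mcl1, Bax and Bad had 50 UMIs over the 4 libraries. Mcl1 stood at 88.9 CPM (55.7 to 135) untreated, 153 (116 to 199) for IL-1β, 122 (99.2 to 147) for IFN-γ and 193 (148 to 247) for both. All 3 treated values lay above the untreated one, and only the interval with both cytokines did not overlap it. With the leading hormone at 10% and 10 times the next, which left 4 untreated δ cells and 17, 27 and 13 treated ones, the Mcl1 ratios were 0.870, 0.760 and 1.21 in place of 1.73, 1.37 and 2.17, so that those of the single cytokines lay below 1. In cells thinned to 4000 UMIs the Mcl1 ratios were higher, at 3.81, 2.47 and 3.33. Bcl2l1 was at 32.3, 13.5, 27.1 and 73.5 CPM, from 8, 5, 23 and 24 UMIs. The level with IL-1β alone, the lowest, rests on 5 UMIs, and its ratio to untreated was 0.416 (0.107 to 1.44), or 1.06 with no limit on the next hormone. Bax was at 170, 148, 120 and 144 CPM, above β cells and below α cells in 4 of 4 libraries. Its ratio to β cells was 1.47 (1.05 to 1.99) untreated and 1.02 to 1.27 in the treated libraries, with intervals that included 1, and without the hormone genes it was 1.03, 1.14, 0.865 and 0.934. With IL-1β, 1 of the 4 genes was at least 1.5-fold higher and 2 were lower (23.3% and 19.3% of 4904 genes), with IFN-γ none in either direction (15.8% and 11.3%), and with both 2 were higher (21.6%, with 28.2% lower). With the hormone genes left out these counts were the same (20.2% higher and 21.3% lower with IL-1β, 14.3% and 13.3% with IFN-γ, and 19.1% and 32.1% with both), save that Bad was lower with both, at 0.635. The other 5 members had 1 to 29 UMIs in a library, and Bcl2 was at 16.2, 5.38, 34.2 and 9.18 CPM from 4, 2, 29 and 3 UMIs. Bcl2l11 was found in 1, 13, 5 and 16 UMIs and Bid in 1, 3, 5 and 11. From 1 untreated UMI, the ratio of Bcl2l11 was 8.66 (1.30 to 368) for IL-1β and 12.1 (1.88 to 508) for both. That of Bid was 8.33 (1.21 to 359) for both. The other ratios of these 5 genes to untreated had intervals that included 1.

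In the make-up of the family, the point values gave Bax a smaller share and Mcl1 a larger one in the treated libraries of all 3 classes. Not all of these differences went beyond counting error. In untreated β cells, Bax supplied 54.1% of the UMIs of the 9 members, Mcl1 19.5% and Bcl2l1 6.5%. With both cytokines these shares were 32.8%, 29.4% and 15.3%. In α cells, Bax supplied 59.0% without treatment and 42.5% to 45.3% in the treated libraries. The α-cell Mcl1 share with both cytokines (16.9% to 21.4%) overlapped the untreated one (11.5% to 18.1%). In δ cells, Mcl1 supplied 23.9% (15.6 to 33.9) untreated and 33.7% to 37.0% in the treated libraries, whose intervals all overlapped the untreated one. Bax supplied 45.7% (35.2 to 56.4) of the δ-cell UMIs untreated, and only its interval with both cytokines (19.9 to 33.2) did not overlap this. Shares of UMIs within the family do not depend on the hormone totals.

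**Figure D3:**
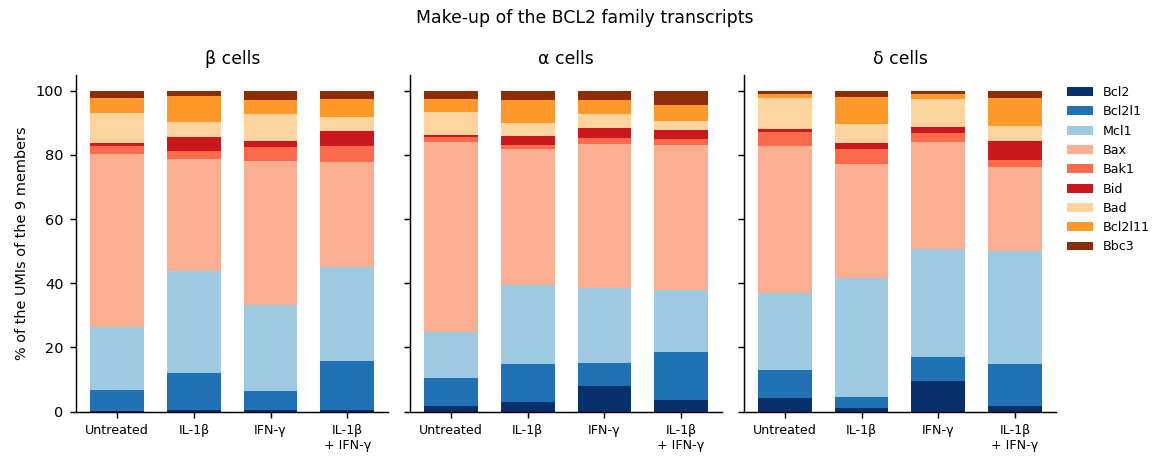
Share of each gene in the summed UMIs of the 9 members, in %, by library and cell class. Anti-apoptotic genes are in blue at the bottom of each bar and pro-apoptotic genes in red and orange above, and in β cells the Bax segment is 54.1% without treatment and 32.8% with both cytokines.

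The balance, the summed UMIs of the 3 anti-apoptotic genes per UMI of the 6 pro-apoptotic genes, was higher in every treated library of β and α cells. In β cells it was 0.356 (0.332 to 0.381) untreated, 0.776 (0.724 to 0.831) for IL-1β, 0.494 (0.462 to 0.529) for IFN-γ and 0.820 (0.779 to 0.864) for both. The 2 libraries with IL-1β had overlapping intervals and lay above the IFN-γ library, which lay above the untreated one. In α cells it was 0.332 (0.268 to 0.411), 0.649 (0.581 to 0.725), 0.628 (0.557 to 0.708) and 0.606 (0.538 to 0.683), so that the 3 treated libraries were not distinguishable and all lay above the untreated one. In δ cells it was 0.586 (0.372 to 0.910), 0.711 (0.508 to 0.991), 1.03 (0.815 to 1.29) and 1.0 (0.738 to 1.35), with overlapping intervals throughout. Over untreated, the δ-cell balance was 1.21-fold (0.713 to 2.06), 1.75-fold (1.08 to 2.83) and 1.71-fold (1.02 to 2.85). With Bax left out of the pro-apoptotic sum, these were 0.861, 1.49 and 0.985.

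The sums weigh the abundant genes most. Over untreated, the balance of β cells was 2.18-fold (1.98 to 2.40) for IL-1β, 1.39-fold (1.26 to 1.53) for IFN-γ and 2.30-fold (2.11 to 2.51) for both. With Bax left out of the pro-apoptotic sum, these were 1.53, 1.12 and 1.53, and those of α cells were 1.40, 1.51 and 1.43 in place of 1.95, 1.89 and 1.82. No intervals were computed for the folds without Bax in any class. The 1.12 for IFN-γ in β cells is therefore not shown to lie beyond counting error. The BH3-only genes together were at 36.9 CPM untreated, 63.1 for IL-1β, 46.2 for IFN-γ and 62.8 for both, while the anti-apoptotic genes were at 56.2, 145, 87.1 and 165 CPM. Per 1000000 UMIs outside the hormone genes, the BH3-only genes were at 70.4, 88.3, 70.6 and 101, so that the IFN-γ and untreated libraries were nearly level, and the anti-apoptotic genes at 107, 204, 133 and 266. With each gene weighted the same, the difference of the mean log2 levels was higher than untreated by 0.66, 0.25 and 0.52, against 1.12, 0.47 and 1.20 for the log2 ratio of the sums.

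**Figure D4:**
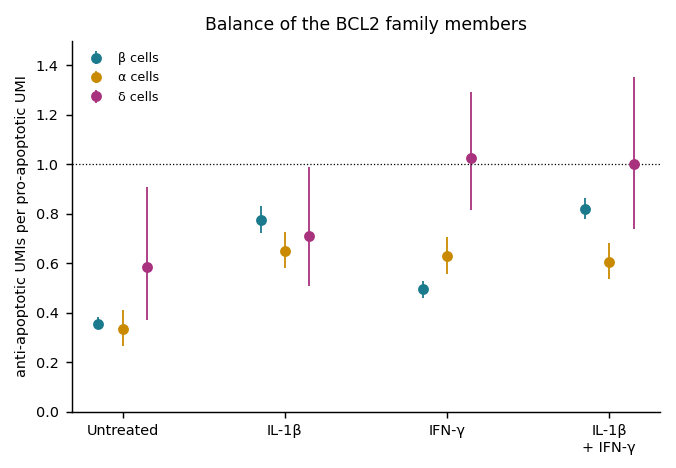
Anti-apoptotic UMIs per pro-apoptotic UMI by library and cell class, with exact 95% binomial intervals for counting error. The dotted line marks equal sums, and β and α cells lie below it in all 4 libraries.

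β cells with and without a Nos2 UMI were compared within the libraries that received IL-1β, where 29.2% of β cells had one with IL-1β alone and 71.4% with both cytokines. Bid was higher in the cells with a Nos2 UMI, at 20.7 against 12.4 CPM with IL-1β and 18.5 against 11.9 CPM with both, or 1.66-fold (1.19 to 2.31) and 1.55-fold (1.12 to 2.17). In cells without a Nos2 UMI, Bid still stood above the 2.14 CPM of untreated β cells. With both cytokines, Bcl2l11 was 1.37-fold (1.04 to 1.83) higher and Bad 0.728-fold (0.553 to 0.965) that of cells without a Nos2 UMI. With IL-1β alone, the ratios of these genes were 1.07 (0.823 to 1.38) and 1.30 (0.926 to 1.83). Bcl2l1, Mcl1, Bax, Bak1, Bbc3 and Bcl2 had intervals that included 1 in both libraries. The share of all genes apart in this split is not given, so which members were apart is no result about the family. Cells with a Nos2 UMI were deeper, with medians of 9296.5 against 7989 UMIs and 12861 against 10583, and the part of depth in these differences was not tested.

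**Figure D5:**
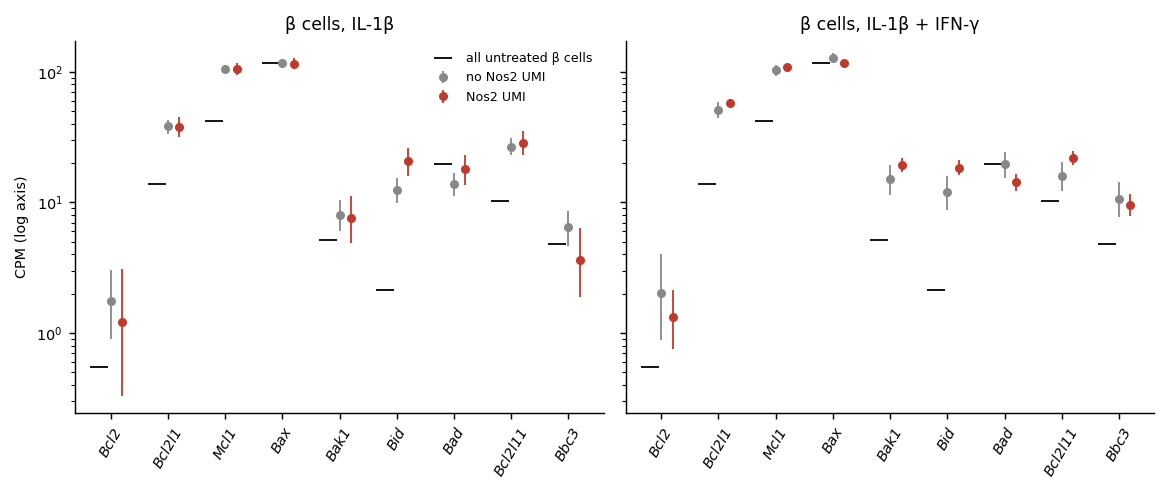
Level of each gene in CPM, on a log axis, in β cells with (red) and without (gray) a Nos2 UMI, for IL-1β (left) and both cytokines (right). Bars are exact 95% Poisson intervals and black dashes are all untreated β cells, and red and gray lie apart for Bid in both libraries.

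Of the 16 other BCL2 family genes, 7 had 50 UMIs in β cells. With IL-1β, Bok, Bmf, Bik, Bnip3 and Bnip3l were at least 1.5-fold higher, with IFN-γ only Bmf, and with both only Bik, against 36.1%, 21.2% and 21.1% of all genes tested. Without the hormone genes, 2, 0 and 1 of the 7 were higher (16.2%, 7.95% and 14.4% of genes), and Bcl2l2 and Bnip3l were lower with both, where 31.6% of genes were. The BH3-only gene Bmf was at 1.99, 5.63, 3.37 and 2.94 CPM, and Bik, another BH3-only gene, at 2.39, 5.33, 2.45 and 5.0 CPM. In α cells Bik was lower in each treated library, at 37.7, 9.85, 19.4 and 10.5 CPM, with ratios of 0.261 (0.146 to 0.458), 0.515 (0.321 to 0.833) and 0.278 (0.143 to 0.520).

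Of 14 genes of the mitochondrial apoptosis pathway, which act at, upstream or downstream of the mitochondrion, 7 were at least 1.5-fold higher in β cells for IL-1β, 4 for IFN-γ and 6 for both, against 36.1%, 21.2% and 21.1% of all genes tested, and Casp9 was lower with both, where 22.3% of genes were. Without the hormone genes, 4, 2 and 5 were higher, against 16.2%, 7.95% and 14.4%, and Casp9 and Endog were lower with both, against 31.6% of genes. Apaf1, which forms the apoptosome with cytochrome c, was at 1.99, 8.39, 3.93 and 11.7 CPM, with ratios of 4.22 (2.87 to 6.31), 1.97 (1.29 to 3.04) and 5.87 (4.16 to 8.48). It was higher in all 3 treated libraries, on the hormone-free scale too, at 3.10, 1.58 and 4.96. Casp8, which cleaves Bid, was at 7.11, 18.6, 8.90 and 22.9 CPM, with ratios of 2.61 (2.09 to 3.27), 1.25 (0.978 to 1.60) and 3.22 (2.64 to 3.93). The caspase inhibitor Xiap was at 23.3, 59.9, 39.1 and 42.3 CPM, with ratios of 2.58, 1.68 and 1.82, or 1.89, 1.35 and 1.54 without the hormone genes, where IFN-γ no longer reached the fold. In α cells Apaf1 was at 11.4, 19.7, 13.4 and 19.0 CPM, and the intervals of its 3 ratios included 1.

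Of 15 regulators of the members, 10 were at least 1.5-fold higher in β cells for IL-1β, 5 for IFN-γ and 8 for both, against 36.1%, 21.2% and 21.1% of all genes tested. Without the hormone genes, 6, 1 and 6 were, against 16.2%, 7.95% and 14.4%. The share with IFN-γ alone was near that of all genes on the hormone-free scale. None was lower in CPM (12.2%, 2.66% and 22.3% of genes), and without the hormone genes only Akt1 was, with IL-1β (25.5%, 7.82% and 31.6%). Ddit3, which encodes the stress-induced transcription factor CHOP, was at 60.9, 168, 144 and 254 CPM, with ratios of 2.76 (2.56 to 2.97), 2.37 (2.21 to 2.55) and 4.17 (3.91 to 4.44). In α cells Ddit3 was lower with IFN-γ, at 18.1 against 32.0 CPM, and higher with IL-1β and both, at 61.2 and 146 CPM. The 14-3-3 gene Ywhaz, whose product binds phosphorylated Bad, was at 76.7, 232, 132 and 168 CPM in β cells, and its ratio with IFN-γ was 1.72, or 1.38 without the hormone genes. Trp53 was at 13.6, 25.3, 13.6 and 29.9 CPM, with ratios of 1.86 (1.56 to 2.21), 0.999 (0.826 to 1.20) and 2.20 (1.89 to 2.56). On the hormone-free scale these were 1.36, 0.80 and 1.85, so that IL-1β no longer reached the fold.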

How the data were processed

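Single-cell RNA-seq libraries of mouse islets were analysed, 1 per condition. The authors counted UMIs with Cell Ranger (mm10 per the submitters' processing notes, software version 3.0.0 per the file headers), and the deposited values are raw UMI counts, without normalization. Library totals were 50731370 (untreated), 20056630 (IL-1β), 31209339 (IFN-γ) and 25716645 UMIs (both). There were 16 barcodes found in more than 1 library.

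Here, UMIs were summed per class and library (Python 3.11.15, with pandas 2.3.3, scipy 1.17.1 and numpy 2.4.6). Intervals of levels are exact Poisson, of shares exact binomial, and of ratios exact conditional binomial, at 95%. No doublet caller was run, and the upper gene limit is the authors' step against doublets. A ratio of at least 1.5 or at most its inverse was past the fold, among genes with at least 50 UMIs over 4 libraries. The 9 members and the lists were chosen with earlier results of these data known. All members and listed genes past the fold in β cells on either scale could be named, and examples were taken from these. No member had 50 UMIs in every class and library, as the rule for genes of like pattern required, so none is named. Some listed genes are not reported here. Positions are from GENCODE M21. Alternatives changed the cell filters, class limits, totals, weighting of cells or genes, depth, fold or UMI minimum, 1 at a time. The method was tested on simulated data.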

Additional observations from a re-analysis of the deposited data

Results flagged for a closer look

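The ratio to the untreated library was compared between cell classes for each member with at least 5 UMIs in all 4 sums, which gave 36 comparisons. In 8 of them the 95% interval of the difference in log2 ratio excluded 0, and in 5 of these 8 it still did without the hormone genes. The same comparisons over all genes with as many UMIs gave 24.1% in CPM and 14.7% without the hormone genes, so that the share of the members, near the former, is no result about them. Without the hormone genes Bax with both cytokines was off 0 as well, with α cells above β cells by 0.23 (0.0038 to 0.46). The interval covers counting error, and no test over replicates stands behind it.

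For Bcl2l1, the log2 ratio of α cells was lower than that of β cells with IL-1β (−0.92, −1.46 to −0.38) and with both cytokines (−0.71, −1.23 to −0.18), and −0.56 and −0.56 without the hormone genes. That of δ cells was lower than that of β cells with IL-1β (−2.72, −4.35 to −1.10), where δ cells had 5 UMIs against 8 untreated. For Mcl1, α cells lay below β cells with IL-1β (−0.48) and both (−0.46), but by only −0.12 (−0.52 to 0.27) and −0.31 (−0.72 to 0.10) without the hormone genes. For Bax, α cells lay below β cells with IL-1β (−0.38) and IFN-γ (−0.52), or −0.02 (−0.25 to 0.21) and −0.31 (−0.54 to −0.08) without them. For Bad, α cells lay below β cells with IFN-γ (−0.92), or −0.70 (−1.36 to −0.04) without them.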

How the results depend on the processing

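No paired analysis was possible because each condition had 1 library, and for the same reason no replicate could be left out. The log2 change of the balance kept its sign in β and α cells under all 8 alternatives that could move it, which leaves out the change of hormone totals, from 0.66 to 1.18 (IL-1β), 0.25 to 0.56 (IFN-γ) and 0.52 to 1.24 (both) in β cells. With each gene weighted the same it was 0.66, 0.25 and 0.52 in β cells, 0.49 (IL-1β) and 0.52 (both) in α cells, and −1.45 (IL-1β) and −0.68 (both) in δ cells, where both changed sign from 0.28 and 0.77. It was 1.01 for both cytokines in β cells thinned to 4000 UMIs. Among ratios past the 1.5-fold, those that crossed 1 were Bcl2 in α cells with IL-1β (0.962 with no upper gene limit) and, in δ cells with IL-1β, Bcl2l1 (1.06 with no limit on the next hormone), Mcl1 (0.870 with at least 10% and 10 times the next) and Bad (1.15 as a mean over cells). Counts of members past the fold in either direction are given with the share of all genes past it under the same setting. With IFN-γ in β cells the count was 3 of 9 without the hormone genes (15.8% of genes) and 3 at a fold of 2 (7.16%). In α cells it was 5 of 9 with IFN-γ as a mean over cells (29.7%) or thinned (37.1%), and at a fold of 2 it was 1 with IL-1β (18.1%) and 4 with both (23.7%). In δ cells with IL-1β it was 1 of 4 with no limit on the next hormone (39.1%) or at a fold of 2 (19.8%), and 7 of 9 with at least 10 UMIs (56.4%). With IFN-γ it was 3 of 4 with 10% and 10 times (60.7%), 2 as a mean over cells (31.8%), 1 thinned (41.8%) and 2 of 9 with at least 10 UMIs (41.4%), and with both it was 6 of 9 with at least 10 UMIs (60.3%). Class limits of 2% and 2 times, added after seeing that δ cells were few, turned no ratio past that fold. Depth limits the low genes, above all Bcl2 in β cells and 5 of the members in δ cells.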

Other observations

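The 167 cells of the pancreatic polypeptide class were too few for the comparisons above. Mcl1 stood at 70.0, 124, 108 and 157 CPM in them (untreated, IL-1β, IFN-γ and both), Bax at 102, 103, 98.8 and 143 CPM, and Bcl2l1 at 25.0, 42.9, 11 and 68.2 CPM. Bid was found in 1, 5, 0 and 9 UMIs. For the 0 with IFN-γ, the level of 3 UMIs would be 5.49 CPM.

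The 1220 cells with no hormone class, which mix non-endocrine cells with endocrine cells below the hormone limits, held Mcl1 at 215, 211, 247 and 293 CPM, Bcl2 at 27.2, 18.5, 25.7 and 24.5 CPM, and Bid at 5.01, 18.5, 13.6 and 20.1 CPM.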
